A study of Mus musculus with 6 samples.

Results

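Mef2a, Mef2b, Mef2c and Mef2d, the 4 genes of the mouse myocyte enhancer factor 2 family, were followed in whole hearts of mice aged 4 days. They were found by symbol among 54532 genes of the deposited FPKM table, and all 4 were present once. Poly(A)-selected RNA was compared between 3 hearts of Wtapflox/flox mice (Wtap-flox) and 3 labelled Wtap-CKO, a conditional knockout of Wtap. Every heart was stated to be an independent biological replicate. WTAP is a regulatory subunit of the complex that writes N6-methyladenosine on messenger RNA, and the series asks what it does in heart development. Neither the Cre driver nor the exons removed are stated in the labels. FPKM divides reads by gene length and by library size, so levels can be compared between genes as far as the deposited lengths hold.

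MEF2 proteins are transcription factors with a MADS domain that bind an A/T-rich element as dimers and switch on muscle genes. Class IIa histone deacetylases bind them and keep their targets silent, and calcium-activated kinases, p38 MAP kinase and calcineurin relieve that block or raise their activity. In the heart they act with GATA4, NKX2-5, HAND and myocardin, and loss of Mef2c stops the heart tube from looping.

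Between 15649028 and 18045599 reads per library were assigned to genes, and 12568 genes averaging 1 FPKM or more were tested with limma at an adjusted p of 0.05. Of these 9.91% were higher and 6.69% lower in Wtap-CKO, 16.6% in all, and the 3 values of each group lay apart in 37.1% (19.8% higher and 17.3% lower). Wtap itself had 7.77, 8.74 and 10.9 FPKM in the Wtap-flox hearts and 9.32, 7.75 and 9.46 FPKM in those labelled Wtap-CKO. Its log2 fold change was -0.04 (adjusted p = 0.893, limma), so the whole-gene value does not check the labels, on which all directions below depend. The 6 cardiomyocyte markers summed to 11913 to 14909 FPKM in Wtap-flox and 13949 to 15637 FPKM in Wtap-CKO, and Ryr2, lower, was the only marker of the 6 that passed. That sum is mostly Actc1, with means of 7634 of 12958 FPKM in Wtap-flox and 9688 of 14536 FPKM in Wtap-CKO. The median log2 fold change of the 6 was -0.20, and 2 lay apart lower and 1 higher. The sum therefore does not show how much of each heart was cardiomyocytes. Of 6 skeletal muscle markers Myod1, Myh4 and Pax7 were listed at 0 in every library and Myog and Myf5 reached at most 0.113 and 0.0542 FPKM. The last, Ckm, is also a heart gene.

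The family had a steep order of FPKM levels that was the same in all 6 hearts. Mef2d was highest, followed by Mef2a, Mef2c and Mef2b, and in each library every gene stood above the next. The place of Mef2d above Mef2a rests on the deposited gene lengths, 5985 bases against 14681. In reads Mef2a was ahead, with 17152 against 12883 in Wtap-flox and 11655 against 10585 in Wtap-CKO. Whether these lengths are those of the transcripts in these hearts was not tested, and the shares below depend on them. Mef2d gave 54.0% to 62.5% of the summed FPKM of the 4 genes in Wtap-flox, and Mef2a gave 29.6% to 36.3%. Mef2c, the member whose loss stops heart development earliest, gave 7.75% to 9.40%, and Mef2b at most 0.310%.

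None of the 3 Mef2 genes that were tested passed the threshold in the libraries labelled Wtap-CKO, although Mef2a and Mef2c had lower values in all 3 of them than in any Wtap-flox heart. At an unadjusted p under 0.05 both were lower, as were 14.2% of all tested genes, and limma-voom on recovered reads called both. Groups lay apart in that direction in 17.3% of all tested genes, so this pattern is common in these data. In bulk tissue, fewer cells of a type and less RNA per cell cannot be told apart.

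Mef2a (ENSMUSG00000030557, chromosome 7, 67231163 to 67372858, minus strand of GRCm38) had levels of 23.4, 21.7 and 23.5 FPKM in Wtap-flox. The Wtap-CKO hearts had 17.2, 19.3 and 12.4 FPKM. All 3 Wtap-CKO values lay below the Wtap-flox values, and Wtap-CKO 3 was the lowest. The means were 22.9 ± 0.996 and 16.3 ± 3.55 FPKM (SD, n = 3), a ratio of 0.713. The log2 fold change, -0.48, had a 95% interval from -0.85 to -0.12 (unadjusted p = 0.0152, adjusted p = 0.0734, limma). These values rest on 3206 to 6109 reads per library. Wtap-CKO was also more variable, with a coefficient of variation of 21.8% against 4.36% in Wtap-flox.

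Mef2c (ENSMUSG00000005583, chromosome 13, 83504034 to 83667080, plus strand) stood at 6.13, 5.56 and 6.09 FPKM in Wtap-flox. Values in the Wtap-CKO hearts were 4.24, 5.16 and 3.39 FPKM. Within Wtap-CKO its hearts were ordered as for Mef2a, with replicate 2 nearest to Wtap-flox and replicate 3 farthest. The means were 5.92 ± 0.319 and 4.26 ± 0.883 FPKM (SD, n = 3), a ratio of 0.719. Its log2 fold change, -0.41, had a 95% interval from -0.73 to -0.09 (unadjusted p = 0.0184, adjusted p = 0.0834, limma), from 940 to 1696 reads per library. The pseudocount of 1 shrinks changes of genes at this level, so the ratio of means is the plainer figure.

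Mef2d (ENSMUSG00000001419, chromosome 3, 88142372 to 88172086, plus strand), the member known for a muscle-specific spliced form, stood at 49.4, 42.3 and 35.0 FPKM in Wtap-flox. Values in the hearts labelled Wtap-CKO were 32.7, 42.6 and 33.1 FPKM. The groups overlapped, since Wtap-CKO 2 was above Wtap-flox 2 and Wtap-flox 3. The means were 42.2 ± 7.18 and 36.1 ± 5.58 FPKM (SD, n = 3), and the log2 fold change, -0.22, had a 95% interval from -0.60 to 0.16 (adjusted p = 0.418, limma). That interval holds a fall by as much as that of Mef2a as well as no change.

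Mef2b (ENSMUSG00000079033, chromosome 8, 70139711 to 70167488, plus strand), a member best known from B lymphocytes, was near the lower limit and was not tested. It stood at 0.163, 0.134 and 0.201 FPKM in Wtap-flox and at 0, 0.0922 and 0.283 FPKM in the other group. These are 4, 3 and 5 reads and 0, 2 and 7 reads, where the count of 0 in Wtap-CKO 1 allows up to 3 reads, or 0.132 FPKM (counting error only). No difference was detectable at this depth. Its span overlaps that of Borcs8, which stood at 9.19 ± 0.763 and 10.1 ± 1.67 FPKM (SD, n = 3; adjusted p = 0.593, limma).

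The sum of the 4 genes was 79.0, 69.7 and 64.8 FPKM in the Wtap-flox hearts. It was 54.1, 67.1 and 49.1 FPKM in the Wtap-CKO hearts. The means were 71.2 ± 7.23 and 56.8 ± 9.29 FPKM (SD, n = 3), and Wtap-CKO 2 lay within the Wtap-flox range. An exact two-sided permutation test gave p = 0.2, and with 3 against 3 no p under 0.1 is possible. No difference in the make-up of the family was shown. The share of Mef2a was 32.3 ± 3.50% and 28.6 ± 3.26% (exact permutation p = 0.3), that of Mef2c 8.38 ± 0.896% and 7.47 ± 0.497% (exact permutation p = 0.2), and that of Mef2d 59.1 ± 4.45% and 63.7 ± 3.44% (exact permutation p = 0.3; SD, n = 3). The larger differences of Mef2a and Mef2c were therefore not shown to differ from that of Mef2d.

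The Mef2a and Mef2c differences sat close to the threshold and crossed it under some settings. Adjusted p for Mef2a ranged from 0.0339 to 0.174 over 20 alternatives and was under 0.05 in 6 of them. For Mef2c it ranged from 0.0349 to 0.198 and was under 0.05 in 4. Without Wtap-CKO 2 both passed, Mef2a at -0.61 (adjusted p = 0.0383) and Mef2c at -0.53 (adjusted p = 0.0374, limma). Without Wtap-CKO 3 they were -0.31 (adjusted p = 0.112) and -0.29 (adjusted p = 0.161, limma). Mef2d did not pass in any of the 20.

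**Figure D1:**
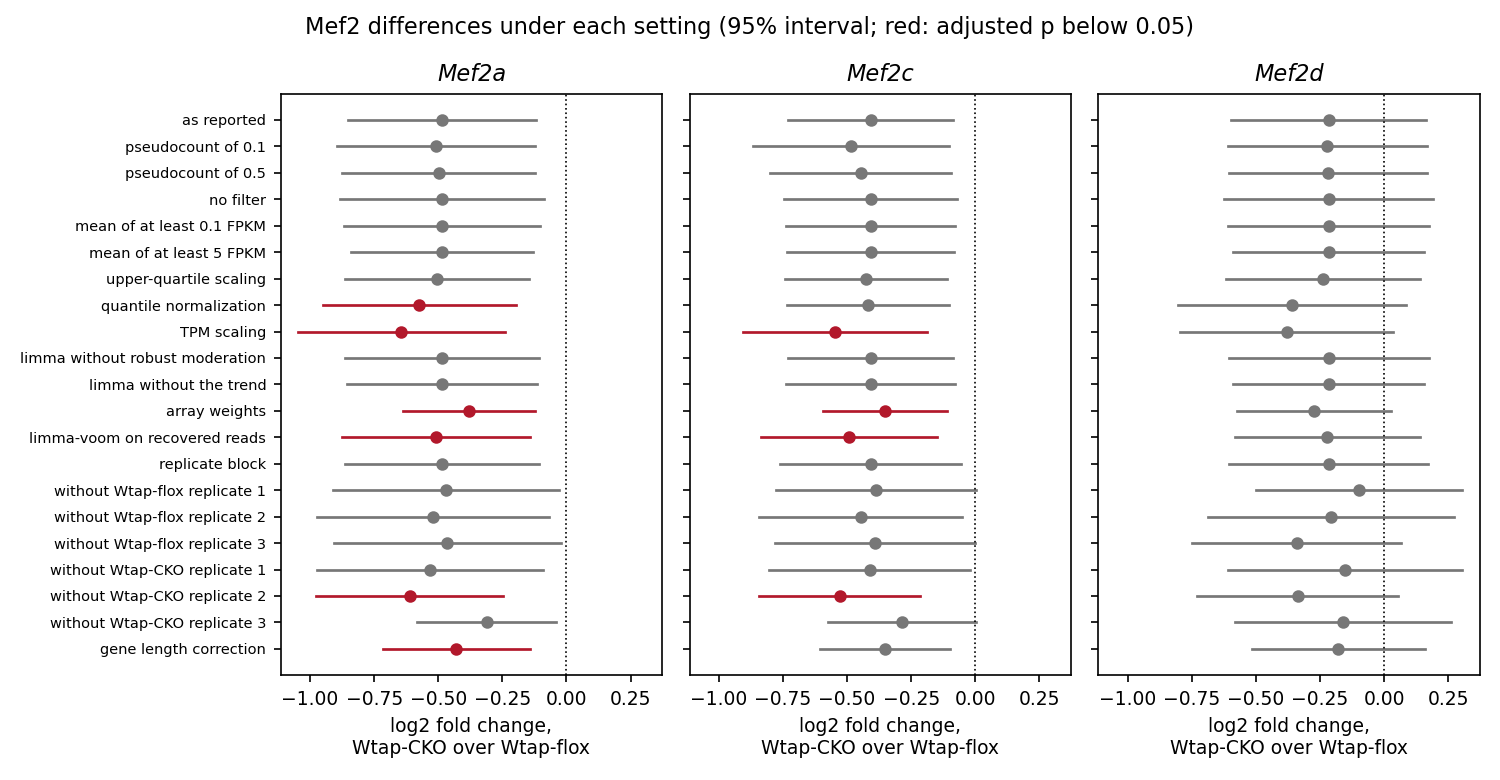
Log2 fold change of Mef2a, Mef2c and Mef2d (x axis, Wtap-CKO over Wtap-flox) with its 95% interval as reported and under each other setting (y axis); red marks an adjusted p below 0.05. Every point lies below 0, and red points occur for Mef2a in 6 settings, for Mef2c in 4 and for Mef2d in none.

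Both genes have long deposited lengths, 14681 bases for Mef2a and 15715 for Mef2c against 5985 for Mef2d, and length moved with the library. These lengths, by which FPKM divides, are shorter than the spans of the loci given above. Length below means this deposited value. Tested genes of at least 10 kb (n = 1072) had median log2 deviations from their own means of 0.10, 0.03 and -0.04 in the Wtap-flox hearts, by replicate number. The same medians were -0.05, 0.09 and -0.15 in the Wtap-CKO hearts. Their median log2 fold change was -0.08, against 0.00 for all tested genes, and 18.9% of them lay apart and lower, against 17.3% of all tested genes. They passed the threshold as lower in 5.13% of cases, against 6.69% of all tested genes. After a correction for gene length, chosen after the data were seen, Mef2a stood at -0.43 (adjusted p = 0.0457) and Mef2c at -0.35 (adjusted p = 0.0574, limma). Without the correction Mef2a stood at -0.48 and Mef2c at -0.41. Whether length gave rise to these differences was not tested.

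Of the genes that overlap the Mef2a and Mef2d loci, 1 was tested. Lysmd4, on the opposite strand and with 89.8% of its locus inside that of Mef2a, stood at 4.18 ± 0.686 and 4.49 ± 0.139 FPKM (SD, n = 3; adjusted p = 0.664, limma), from 284 to 441 reads. The predicted genes Gm44667 and Gm44668 within Mef2a had at most 21 and 0 reads. The antisense gene 1700113A16Rik at the end of Mef2d had at most 14 reads. No source used here says whether reads were counted by strand, and overlap was measured on loci, not on exons. Whether reads of these partners were mixed with those of the Mef2 genes was not tested.

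Mef2a and Mef2c also followed each other from heart to heart. Over the 6 libraries the Pearson correlation of their log2(FPKM + 1) was 0.989, and that of Mef2d was 0.621 with Mef2a and 0.674 with Mef2c. The points share libraries, scaling and the split between groups, so these are descriptions. Of 6977 protein coding genes averaging 5 FPKM or more, 3.98% had a correlation above 0.9 with Mef2a, 3.70% with Mef2c and 2.54% with Mef2d. Nearest to Mef2a were Epm2aip1 (0.997), the deubiquitinase gene Usp2 (0.997), Tmem65 (0.995), which encodes a mitochondrial and intercalated disc protein, and Nlk (0.993), a kinase of the MAP kinase family. Arglu1 (0.995), Epm2aip1 (0.992), Tmem182 (0.992) and the translation repressor gene Eif4ebp2 (0.989) were nearest to Mef2c. For Mef2d they were the transcription factor gene Nfic (0.999), Hip1 (0.996), the Golgi mannosidase gene Man2a2 (0.996) and the receptor gene Notch3 (0.995). None of these 11 genes passed the threshold between groups.

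Among corepressors of MEF2, Hdac9 fell in the libraries labelled Wtap-CKO. It encodes a class IIa deacetylase that binds MEF2 and is itself a MEF2 target. Hdac9 stood at 2.74, 2.31 and 2.79 FPKM in Wtap-flox and at 1.41, 1.94 and 1.17 FPKM in Wtap-CKO, with no overlap. The log2 fold change was -0.54 (adjusted p = 0.0364, limma). Its call was lost when any library but Wtap-CKO 2 was left out, with adjusted p from 0.0674 to 0.11. Of the 6 listed corepressors 1 passed, 16.7% against a background of 16.6%. This list and those of kinases, phosphatases and partners below were chosen with earlier results of these data known, so their shares are descriptions. The other class IIa genes Hdac4 (-0.23), Hdac5 (-0.31) and Hdac7 (0.08), the class I gene Hdac3 (-0.12) and the calcineurin-binding repressor gene Cabin1 (-0.16) did not pass.

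Of 22 kinases and phosphatases that act on MEF2 or its deacetylases 20 were tested, 2 rose and 3 fell, or 25.0% against 16.6% of all tested genes. Values lay apart between the groups for 10 of the 20, 7 lower and 3 higher. Over all tested genes 37.1% lay apart, 17.3% lower and 19.8% higher. The list's median log2 fold change was -0.18, against 0.00 over all tested genes. These counts and this median are descriptions, since the list was chosen with earlier results of these data known. The p38 activators moved apart. Map2k6 fell from 3.79 ± 0.857 to 1.24 ± 0.128 FPKM (log2 fold change -1.08, adjusted p = 0.00264) and Map2k3 rose from 14.6 ± 0.908 to 22.5 ± 1.73 FPKM (0.59, adjusted p = 0.0109; SD, n = 3, limma). Their substrate p38 alpha, Mapk14, had -0.30 (adjusted p = 0.146), with values of 19.3 to 22.4 FPKM against 14.7 to 18.5 FPKM that did not overlap.

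Prkaca, the catalytic subunit of protein kinase A, fell from 174 ± 1.54 to 115 ± 9.14 FPKM (SD, n = 3; -0.60, adjusted p = 0.0208, limma). Prkd2, a protein kinase D that sends class IIa deacetylases out of the nucleus, fell from 8.70 ± 1.02 to 5.62 ± 1.33 FPKM (-0.57, adjusted p = 0.0454). Sik1, a kinase of the same deacetylases and a MEF2 target, rose from 8.41 ± 1.66 to 13.6 ± 2.62 FPKM (0.64, adjusted p = 0.0389). All 3 calls depended on single libraries. Prkaca missed the threshold without Wtap-flox 1, 2 or 3 or Wtap-CKO 1 (adjusted p from 0.0542 to 0.082), and Prkd2 without any library other than Wtap-CKO 2 (0.0712 to 0.145). Sik1 missed it without Wtap-flox 1 or 3 or Wtap-CKO 2 or 3 (0.081 to 0.127). Without Wtap-flox 1, 2 or 3, 1 kinase or phosphatase fell, and without Wtap-CKO 1 or 3, 2 fell. Without Wtap-flox 1 or 3 or Wtap-CKO 2 or 3, 1 rose.

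The calcium-dependent arm held no call. Camk2d, the main heart form of calmodulin kinase II, stood at 12.8 ± 0.207 and 11.0 ± 1.71 FPKM (-0.21, adjusted p = 0.319), and the calcineurin subunit genes Ppp3ca, Ppp3cb and Ppp3r1 had -0.27, -0.22 and -0.02 (adjusted p from 0.13 to 0.932, limma). Ppp3ca did not overlap between groups, at 8.28 to 9.31 against 6.66 to 7.48 FPKM, nor did Camk2a, at 12.5 to 15.4 against 9.73 to 12.1 FPKM (-0.27, adjusted p = 0.203). Camk2b, at 0.690 to 1.20 FPKM, and Camk4, at 0.116 to 0.326 FPKM, were not tested.

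Among 24 partners and coactivators 19 were tested, 2 rose and 1 fell, or 15.8% against the background of 16.6%. Mamstr, which encodes a coactivator of MEF2 related to myocardin, stood at 4.03, 3.82 and 3.90 FPKM in Wtap-flox and at 1.45, 1.62 and 1.93 FPKM in Wtap-CKO. The groups lay well apart, with a ratio of means of 0.425 (log2 fold change -0.89, adjusted p = 0.00214, limma). Hand2, a bHLH factor of the right ventricle, rose from 25.0 ± 0.682 to 40.2 ± 4.09 FPKM (0.66, adjusted p = 0.00861; SD, n = 3). Its relative Hand1 stood at 0.460, 0.945 and 0.480 against 2.17, 1.49 and 1.08 FPKM (0.66, adjusted p = 0.0499, limma). Hand1 missed the threshold without Wtap-flox 1, 2 or 3 or Wtap-CKO 2 (adjusted p from 0.0521 to 0.147). Without Wtap-CKO 1 it fell under the filter and was not tested. Its Wtap-flox mean, 0.628 FPKM, lay under the filter of 1 FPKM, and it was tested only through its Wtap-CKO mean of 1.58 FPKM. Its call, counted among the 2 that rose, is thus a description.

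The other partners did not pass. Myocd, myocardin, stood at 14.4 ± 5.29 and 26.1 ± 6.40 FPKM (0.85, adjusted p = 0.0704), its co-factor Srf had -0.01, and the GATA genes Gata4 and Gata6 had 0.06 and -0.09. The acetyltransferase genes Ep300 and Crebbp had -0.14 and -0.04. Among those not tested, Gata5, Isl1, Foxh1 and Vgll2 lay under a mean of 1 FPKM.

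**Figure D2:**
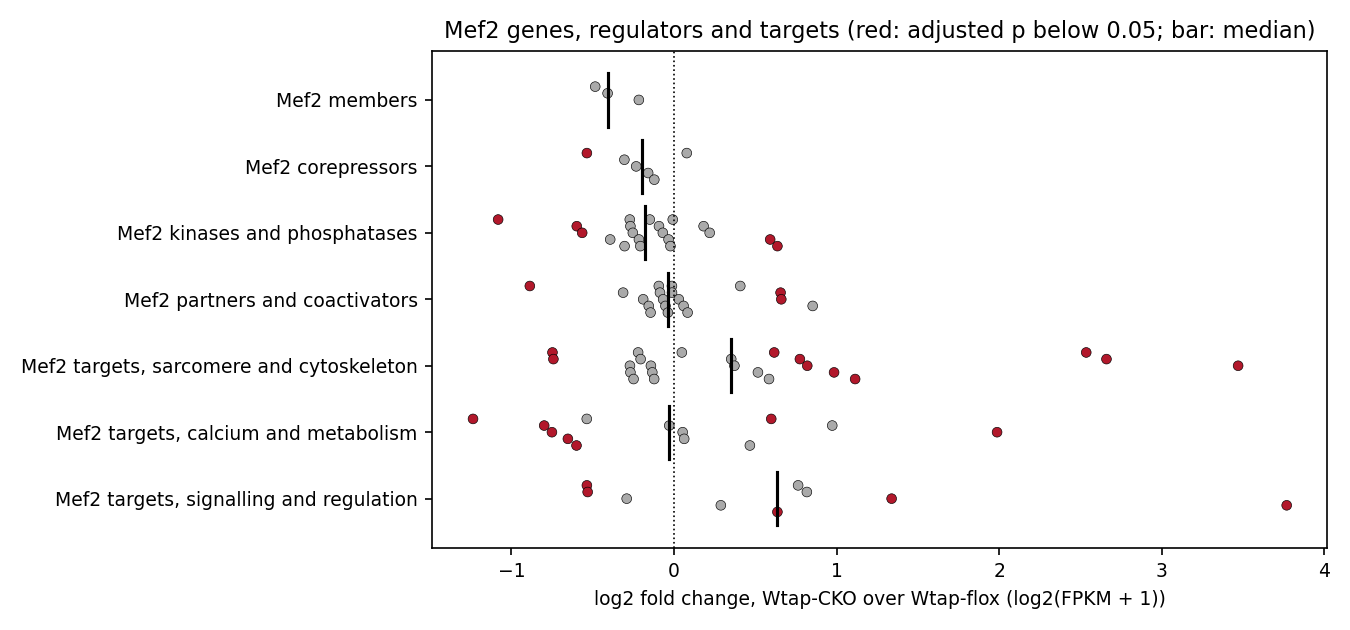
Log2 fold change (x axis, Wtap-CKO over Wtap-flox, on log2(FPKM + 1)) of each tested Mef2 gene and of the genes listed as corepressors, kinases and phosphatases, partners and targets (rows); red marks an adjusted p below 0.05 and the black bar is the list's median. The rows of targets hold the points farthest from 0, on both sides, while most regulators lie between -0.5 and 0.5.

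Genes described as targets of MEF2 in muscle moved in both directions between the groups. Of 46 listed targets 45 were tested (Ampd1, at most 0.0175 FPKM, was not), 13 rose and 9 fell, or 48.9% against 16.6% of all tested genes. Their median log2 fold change was 0.06. The list was written with earlier results of these data known, which named several of these genes, so the share is a description. The same holds for the counts and medians of its parts below. Leaving out Wtap-flox 3 left 7 that rose. Leaving out Wtap-flox 1 left 4 that fell, and leaving out Wtap-CKO 1, Wtap-flox 2 or Wtap-flox 3 left 3.

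Of 23 targets of the sarcomere and cytoskeleton 8 rose and 2 fell, or 43.5% against 16.6% of all tested genes. Their median log2 fold change was 0.35. Xirp2, an actin-binding protein of the intercalated disc, stood at 3.84, 5.01 and 4.12 FPKM in Wtap-flox and at 33.5, 35.2 and 29.1 FPKM in Wtap-CKO. Myoz1, a calcineurin-binding Z-disc protein of fast muscle, stood at 0.879, 1.20 and 1.55 against 21.1, 21.5 and 27.8 FPKM. Abra, which drives SRF by way of actin and myocardin-related factors, stood at 2.75, 4.01 and 4.24 against 20.9, 22.7 and 36.0 FPKM. In these 3 genes the lowest Wtap-CKO heart was above the highest Wtap-flox heart by a wide margin. Their log2 fold changes were 2.66, 3.47 and 2.54 (adjusted p = 4.4e-05, 2.95e-05 and 0.000599, limma), with ratios of means of 7.54, 19.4 and 7.23.

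Csrp3 (1.11, adjusted p = 0.00519), Myoz2 (0.98, adjusted p = 0.00444) and Lmod2 (0.62, adjusted p = 0.017), a nucleator of actin thin filaments, also rose. Nebl, the cardiac relative of nebulin, fell from 22.8 ± 2.12 to 13.3 ± 2.48 FPKM (SD, n = 3; -0.75, adjusted p = 0.0132, limma). Fhl2, a LIM protein of the sarcomere, fell by 0.74 on the log2 scale (adjusted p = 0.014). Lmod2 missed the threshold without Wtap-flox 2 (adjusted p = 0.0829) or Wtap-flox 3 (adjusted p = 0.055), and Fhl2 did so without Wtap-CKO 1 (0.0725), Wtap-flox 2 (0.0568) or Wtap-flox 3 (0.0686). The other 2 that rose were the intermediate filament gene Des (0.77, adjusted p = 0.0176) and Xirp1 (0.82, adjusted p = 0.0279). The call of Des was lost when Wtap-CKO 1, Wtap-flox 1 or Wtap-flox 3 was left out (adjusted p from 0.0607 to 0.0856), and that of Xirp1 without Wtap-flox 1, 2 or 3 or Wtap-CKO 2 (0.0544 to 0.0932).

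Other sarcomere targets showed no call, though some of them also lay apart between groups. Of all 23, called or not, 11 lay apart higher and 4 lower, against 19.8% and 17.3% of all tested genes. Smyd1, the methyltransferase gene that Mef2c is known to switch on in the heart, stood at 114 ± 1.73 and 105 ± 10.3 FPKM (-0.12, adjusted p = 0.59) and Myh6 had -0.13 (adjusted p = 0.718).

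Of 13 tested targets of calcium handling and metabolism 2 rose and 5 fell, or 53.8% against 16.6% of all tested genes. Their median log2 fold change was -0.03. The calsequestrin gene of skeletal muscle, Casq1, stood at 8.73, 19.2 and 11.7 FPKM in Wtap-flox and at 74.3, 47.4 and 41.8 FPKM in Wtap-CKO (1.99, adjusted p = 0.00791, limma). Adssl1, the muscle adenylosuccinate synthase, stood at 69.6, 82.1 and 73.8 against 39.6, 26.5 and 29.0 FPKM (-1.24, adjusted p = 0.0024). The glucose transporter Slc2a4 stood at 47.5, 46.7 and 43.0 against 29.1, 28.8 and 28.2 FPKM (-0.65, adjusted p = 0.00687). None of these 3 overlapped between groups, and the Wtap-CKO values of Slc2a4 lay within 1 FPKM of each other.

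Hrc, a calcium-binding protein of the sarcoplasmic reticulum, fell by 0.75 (adjusted p = 0.0258), and myoglobin, Mb, fell by 0.80 (adjusted p = 0.029, limma). Hrc missed the threshold without any library other than Wtap-CKO 3 (adjusted p from 0.0567 to 0.0973), as Mb did (0.0576 to 0.107). Creatine kinase, Ckm, fell by 0.60 (adjusted p = 0.0344) and the cardiac calsequestrin gene Casq2 rose by 0.60 (adjusted p = 0.0394). Both also missed it without any library other than Wtap-CKO 3 (0.0709 to 0.146 and 0.0706 to 0.164). Ppargc1a, the mitochondrial coactivator gene that MEF2 and its deacetylases control in muscle, stood at 19.4 ± 1.14 and 20.4 ± 4.81 FPKM (SD, n = 3; 0.05, adjusted p = 0.854).

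Of 9 targets of signalling and regulation 3 rose and 2 fell, or 55.6% against 16.6% of all tested genes. Their median log2 fold change was 0.64, and Sik1 and Hdac9 are among them. A noncoding RNA also among them had means of 0.395 FPKM in Wtap-flox and 1.72 FPKM in Wtap-CKO. It was tested only through its Wtap-CKO mean and was not called. The medians of this part and of all listed targets include it. Nppa, the gene of atrial natriuretic peptide, stood at 48.5, 131 and 52.7 FPKM in Wtap-flox and at 992, 555 and 1606 FPKM in Wtap-CKO (3.77, adjusted p = 0.00764, limma). Jun, an AP-1 factor gene, stood at 38.4, 40.2 and 40.8 against 23.6, 29.9 and 28.6 FPKM (-0.53, adjusted p = 0.026). Nr4a1, an orphan nuclear receptor gene, rose from 8.46 ± 3.73 to 22.2 ± 5.53 FPKM (SD, n = 3; 1.34, adjusted p = 0.0314). Jun missed the threshold without Wtap-flox 1, 2 or 3 or Wtap-CKO 1 (adjusted p from 0.0592 to 0.107) and Nr4a1 without Wtap-flox 1 or 3 or Wtap-CKO 2 or 3 (0.0582 to 0.107). Meg3 and Rian, noncoding RNAs of a cluster under MEF2A control in muscle, stood highest in Wtap-CKO 3 at 13.8 and 11.8 FPKM, and neither passed (0.29 and 0.76, adjusted p = 0.488 and 0.102).

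**Figure D3:**
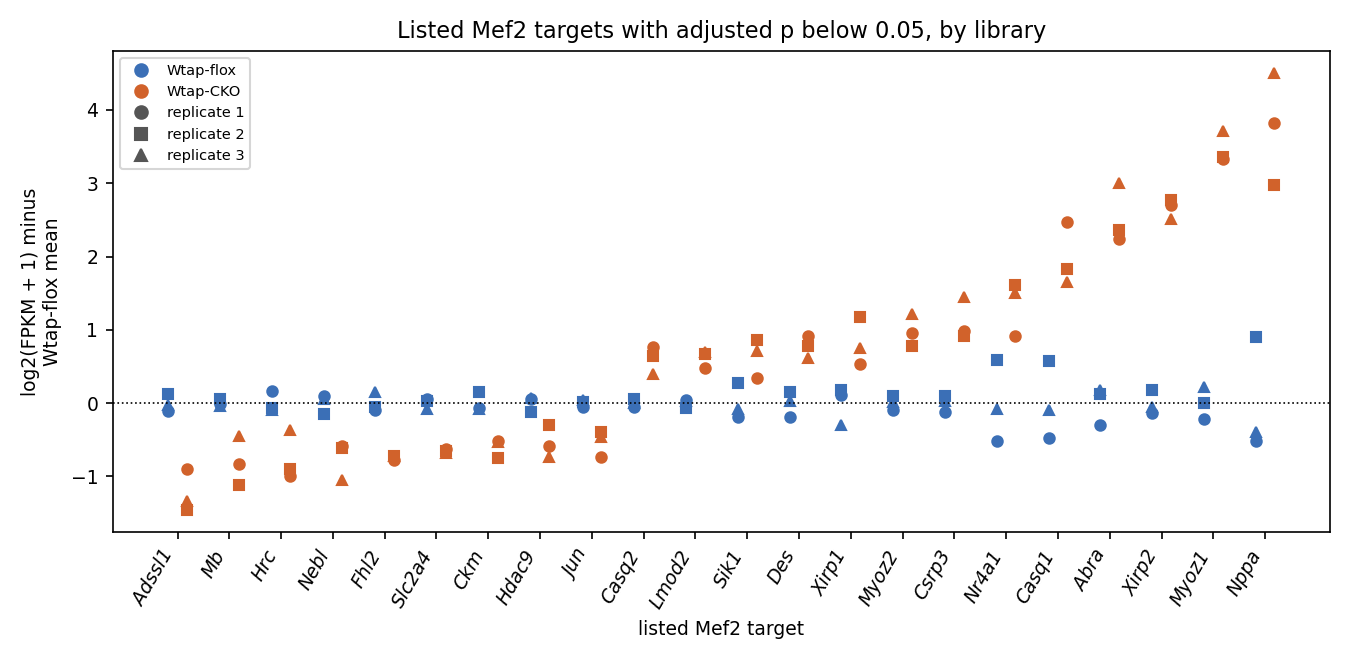
Log2(FPKM + 1) minus the gene's Wtap-flox mean (y axis) in each Wtap-flox (blue) and Wtap-CKO (orange) heart, with symbols for the replicate, for the listed targets that passed the threshold (x axis, ordered by fold change). From Adssl1 to Jun every orange point lies below the blue ones, and from Casq2 to Nppa above them.

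The promoters of Mef2a and of some targets carry the letters of the MEF2 consensus element. Promoters of 300 bases, from 250 before to 50 after the gene start (RefSeq, GRCm38.p6), were searched for this element of 10 bases, whose pattern reads the same on both strands. It was present in 3.19% of 32851 promoters. Of the 6 promoters listed for the 4 Mef2 genes only that of Mef2a held it, spanning the gene start. Of 36 targets with a listed promoter 9 held it (25.0%), against 2.41% of 9051 tested genes and 3.70% of 27025 genes with a promoter. The list holds genes already described as MEF2 targets, which can rest on such an element, so this share is a description. Among the 9 were Xirp2, Myoz2, Casq2, Fhl2 and Jun, which passed the threshold, and Mybpc3, Ttn, Pgam2 and Srpk3, which did not. Windows of 30 bases around the element are shown for Mef2a, Xirp2, Casq2, Fhl2 and Jun, with the element in capitals, because their differences lay in both directions while they held like letters.
Mef2a, chr7:67372841-67372870, minus strand: ggcctgactcCTAAAAATAGccccggtgtg
Xirp2, chr2:67445918-67445947, plus strand: agctcagttcCTAAAAATAGgtgctaggtt
Casq2, chr3:102086336-102086365, plus strand: attgcatgatTTATTTTTAGctcgaaacaa
Fhl2, chr1:43196773-43196802, minus strand: tggacatgccTTATTTATAActctgctgac
Jun, chr4:95052236-95052265, minus strand: acatcatgggCTATTTTTAGggattgactg

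Mef2a and Xirp2 hold the same 10 letters, 2 bases and 74 bases before the gene start, and in these hearts Xirp2 rose while Mef2a had lower values. Among the windows shown, in Fhl2 and Jun the element starts 31 and 33 bases before the gene start, where a TATA box often lies, and its letters can be read as one. Of 218 tested genes with the element 24.8% passed the threshold, 30 higher and 24 lower, and of 8833 without it 16.8% passed. Their median log2 fold changes were -0.09 and 0.01. The 218 include listed targets such as Xirp2 and Jun, so these shares are descriptions. A match of letters does not show that MEF2 binds there, and enhancers outside this window were not searched.

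Markers of other cells that can hold Mef2c were set beside these results. Endothelial cells, which also express Mef2c, had 6 markers that summed to between 230 and 257 FPKM in Wtap-flox and between 225 and 241 FPKM in Wtap-CKO, with Emcn higher and Kdr lower. Fibroblast markers summed to 587 to 680 and 447 to 627 FPKM, with 1 of 6 lower. Smooth muscle and pericyte markers summed to 145 to 178 FPKM and to 121 to 143 FPKM, with 1 of 6 higher. That marker was Cspg4, while the median log2 fold change of the 6 was -0.22. Rgs5 weighs most in this sum, with means of 84.1 of 156 FPKM in Wtap-flox and 60.7 of 129 FPKM in Wtap-CKO. Macrophage markers summed to 30.3 to 35.2 FPKM in Wtap-flox and to 45.7 to 71.4 FPKM in Wtap-CKO, and 3 of 6 (C1qa, C1qb and Mrc1) rose. Lymphocyte markers, none of which reached a mean of 1 FPKM, summed to 1.04 to 1.41 and 1.41 to 1.95 FPKM. The 6 erythroid markers summed to 629 to 2158 and 1191 to 2120 FPKM and the 6 neural markers to 2.72 to 3.31 and 2.62 to 3.94 FPKM. Only 5 of the erythroid and 2 of the neural markers were tested, and none of those was called. Over all tested genes 9.91% were higher and 6.69% lower. The part of these cells in the Mef2 values was not tested.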

How the data were processed

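RNA from 6 hearts was sequenced as pairs of 150 bases. The tools named per the submitters' processing notes are CASAVA, HISAT2 2.0.5, featureCounts 1.5.0-p3 and DESeq2 1.20.0. The authors deposited FPKM per gene and library, with gene length in bases as another deposited value (other unit). The notes name GRCm39, but 94.7% of 20874 coding genes lie within 1000 bases of their start or end in GRCm38.p6. FPKM times length was a whole multiple of a step per library (tolerance 0.01) for 100.0% of values above 0, so reads (or read pairs) were recovered.

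Genes averaging 1 FPKM or more were tested with limma 3.58.1 (R 4.3.3) on log2(FPKM + 1), with trend and robust moderation, two-sided, Benjamini-Hochberg over all tested genes, threshold 0.05. Positive fold changes are higher in Wtap-CKO. Python 3.11.15, pandas 2.3.3 and matplotlib 3.10.9 made tables and figures, and the fit was tested on simulated data.

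The members and lists (96 symbols, all found) were chosen with earlier results of these data known. Named are the members, overlapping genes, up to 6 genes per list by adjusted p with the first in the opposite direction, and the 4 genes most correlated with each tested member; others named in lists (such as Casq2, Des, Xirp1, Smyd1, Ppargc1a, Mapk14, Camk2d and genes not tested) were chosen after their values were seen. Alternatives were pseudocount, filter, scaling, moderation, array weights, limma-voom on recovered reads, a replicate block, each library left out and an added length correction. No sample column was left unused (0). A listed gene and a promoter window are not reported here.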

Additional observations from a re-analysis of the deposited data

How the results depend on the processing

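All 20 alternatives kept the direction of Mef2a, Mef2c and Mef2d. Mef2a passed the threshold with quantile normalization (-0.57), TPM scaling (-0.64), array weights (-0.38), limma-voom (-0.51) and the length correction (-0.43), and Mef2c with TPM scaling (-0.55), array weights (-0.35) and limma-voom (-0.49). TPM scaling shifts the median of all genes by -0.14. With 1 library left out Mef2a ranged from -0.61 to -0.31 and Mef2c from -0.53 to -0.29. No pairing of the hearts by replicate number was seen: deviations of same-numbered hearts correlated at -0.22, -0.08 and -0.08, and none matched its own number best. With so few hearts a pairing could go unseen. With a replicate block Mef2a had adjusted p = 0.0906 and Mef2c 0.118 (limma), 1048 genes were higher and 625 lower, 0 corepressors were lower and 1 kinase or phosphatase was lower.

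All genes called higher and lower were 1245 and 841. They were 723 and 483 without a filter, 799 and 1600 with TPM scaling, 2056 and 1676 with array weights, 715 to 1187 and 417 to 829 with 1 library left out, and 471 were lower with a minimum mean of 5 FPKM. No corepressor was lower (0) without a filter or with a minimum mean of 0.1 or 5 FPKM, and 0 to 1 with 1 library left out. Of kinases and phosphatases 1 was higher without a filter, with a minimum mean of 0.1 FPKM, with TPM scaling and with array weights; with 1 library left out 1 to 2 were higher and 1 to 3 lower. Of partners 1 was higher at a pseudocount of 0.1, without a filter, with minimum means of 0.1 and 5 FPKM, with upper-quartile or TPM scaling and without robust moderation, and 1 to 2 with 1 library left out. With array weights 4 partners were higher and 2 lower, and with a minimum mean of 5 FPKM 0 were lower. With 1 library left out 7 to 12 targets were higher and 3 to 10 lower, and 3 were lower without a filter. The cause was not tested, other than that fits without a library have fewer samples and the filters change the genes tested. The share of Mef2b, from at most 7 reads, differed by 0.00 percentage points and, with 1 library left out, by -0.17 (Wtap-CKO 3) to 0.12 (Wtap-CKO 1), the sign also turning without Wtap-flox 1 (-0.01) or Wtap-flox 2 (-0.02).

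Of 29 called genes on the regulator and target lists, 12 passed in every alternative that tested them (Map2k3, Map2k6, Hand2, Mamstr, Xirp2, Abra, Myoz1, Myoz2, Csrp3, Casq1, Slc2a4 and Adssl1). The other 17 missed the threshold in at least 1, Nebl without a filter and Nppa with a replicate block among them, and 0 turned direction. Depth limits Mef2b.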
